A study of Mus musculus with 16 samples.

Results

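Kitl and Kit, the genes of a growth factor and of its receptor, were followed as a pair in mouse ovary. They are 2 of the 55426 genes in the deposited table, both were found by symbol, and both were among the 18833 genes with enough counts to be tested. The pair was chosen from measured values of these same libraries, namely the levels in the 4 groups. The levels and fold changes of Kitl and Kit are thus given as a description, with no test. Their standard errors (SE) and 95% intervals make no allowance for that choice, and are not to be read as a test.

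Kitl encodes Kit ligand, also called stem cell factor, which is made as a membrane protein and can be cut from the cell surface. Kit encodes its receptor, a tyrosine kinase of class III that pairs up when the ligand binds and passes the signal to the PI3 kinase and ERK routes. In the ovary of the mouse, granulosa cells are the known source of the ligand, and the receptor is known from oocytes and from theca and interstitial cells. Kit is also a surface marker of mast cells and is needed by melanocytes.

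Poly(A) RNA of 1 ovary per mouse was sequenced from 16 female C57BL/6NHsd mice, an inbred strain, and each of the 4 groups held 4 mice. On T mice began weekly injections of 0.9 mg testosterone enanthate, an ester of testosterone with a long action, at 9 to 10 weeks of age and were killed at 16 weeks of age, after 6 weeks of treatment. Control for On T mice of the same age were given sesame oil alone. Post T mice formed another cohort, in which the same 6 weeks of testosterone were followed by washout. They were killed 4 cycles after cycling had come back, at 24, 26, 26 and 28 weeks of age. Control for Post T mice were given oil alone and had that same set of ages. All mice were in diestrus. Libraries held 29004008 to 52659637 counts in On T, 29816015 to 45836299 in Control for On T, 30359221 to 44292334 in Post T and 26598055 to 40442120 in Control for Post T. The tissue is the whole ovary, so more cells of a type and more RNA per cell cannot be told apart.

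Kitl (ENSMUSG00000019966) is found on chromosome 10, plus strand, from 100015630 to 100100416 in GRCm38, with 6 annotated transcripts, 4 of them coding, and up to 10 exons. Kit (ENSMUSG00000005672) is found on chromosome 5, plus strand, from 75574916 to 75656722, with 8 annotated transcripts, 2 of them coding, and up to 21 exons. Neither overlaps another annotated gene. Kit stands between the genes of 2 other receptor kinases, 376701 bases from Pdgfra on one side and 276105 bases from Kdr on the other. Because both members were higher in both testosterone groups, the 250 bases before the RefSeq start of each gene (build GRCm38.p6, plus strand) are shown. Kit has 2 RefSeq promoter entries, and only the first by position was searched. Kitl is taken at chr10:100015571-100015820 and Kit at chr5:75574737-75574986, and capitals mark matches to the GC box GGGCGG of Sp factors on either strand.
Kitl: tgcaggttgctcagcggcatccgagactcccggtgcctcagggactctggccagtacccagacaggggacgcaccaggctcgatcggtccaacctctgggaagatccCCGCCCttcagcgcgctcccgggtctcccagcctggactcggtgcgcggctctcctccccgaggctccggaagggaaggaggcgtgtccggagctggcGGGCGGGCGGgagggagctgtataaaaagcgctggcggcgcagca
Kit: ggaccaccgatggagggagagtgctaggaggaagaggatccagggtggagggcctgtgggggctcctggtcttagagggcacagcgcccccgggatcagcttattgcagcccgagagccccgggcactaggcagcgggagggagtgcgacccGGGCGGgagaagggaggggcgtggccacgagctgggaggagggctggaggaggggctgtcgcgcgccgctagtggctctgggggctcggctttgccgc
RefSeq and GENCODE place the starts differently, and the GENCODE gene starts within each stretch, at 100015630 for Kitl and 75574916 for Kit. Most of the Kitl stretch, with all 3 of its GC boxes, thus lies inside the annotated gene. For Kit the smaller, 3′ portion does, and its GC box lies before that start. Kitl held 3 GC boxes, 2 of which overlap on the plus strand, and Kit held 1. A GC box was found in 32.7% of 32851 promoter stretches of the same length. G and C made up 69.2% of the Kitl stretch and 70.8% of the Kit stretch, against a median of 52.4% over all stretches. No match was present in either stretch to AGAACA, the core of androgen and glucocorticoid receptor elements, which 16.1% of all stretches hold. The same was true of AGATAA of GATA factors (9.99% of all stretches), of the E-box CACGTG (6.02%), of GTAAACA of forkhead factors (3.17%) and of TCAAGGTCA of NR5A factors (0.387%). Both strands were searched.

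Kitl, the ligand, was higher in all 8 ovaries of testosterone mice than in any of the 8 control ovaries. Levels are in CPM, counts relative to library totals after normalisation. On T ovaries 1 to 4 had 247, 260, 233 and 199 CPM of Kitl, against 141, 126, 127 and 133 CPM in Control for On T ovaries. Post T ovaries 1 to 4 had 261, 316, 201 and 308 CPM, against 125, 146, 128 and 124 CPM in Control for Post T ovaries. The control ovaries of both cohorts lay close together, while the testosterone ovaries spread more widely, most of all after washout. The mean was 235 ± 26.5 CPM in On T and 132 ± 7.18 CPM in Control for On T, and it was 271.5 ± 52.7 CPM in Post T and 130.4 ± 10.4 CPM in Control for Post T (SD, n = 4 each).

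The fold change of Kitl was 1.78 in On T over Control for On T, or 0.83 on the log2 scale (SE 0.12, 95% interval 0.59 to 1.08). It was 2.08 in Post T over Control for Post T, or 1.06 on the log2 scale (SE 0.12, interval 0.82 to 1.3). The lowest On T ovary had 1.41 times the level of the highest ovary of its controls, and the lowest Post T ovary 1.38 times. Among all genes tested, 3.31% had a larger log2 fold change in On T and 3.93% in Post T. The log2 change in Post T was 0.22 above that in On T (SE 0.17).

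Kit, the receptor, showed the larger fold change of the pair in both cohorts, and its mean was lower in the later cohort, in testosterone and control ovaries alike. On T ovaries 1 to 4 had 294, 333, 254 and 258 CPM of Kit, against 119.5, 61.9, 73.1 and 74.0 CPM in Control for On T ovaries. Post T ovaries 1 to 4 had 119, 114, 130.5 and 220.1 CPM, against 38.6, 62.9, 41.0 and 59.0 CPM in Control for Post T ovaries. In each cohort every testosterone ovary lay above every control ovary, and Control for On T ovary 1 and Post T ovary 4 were the high ones of their groups. The mean was 285 ± 36.9 CPM in On T and 82.1 ± 25.5 CPM in Control for On T, and it was 146 ± 50.0 CPM in Post T and 50.4 ± 12.3 CPM in Control for Post T (SD, n = 4 each).

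The fold change of Kit was 3.46 in On T over Control for On T, or 1.79 on the log2 scale (SE 0.24, interval 1.33 to 2.26), and 75 genes (0.398% of those tested) had a larger one. It was 2.89 in Post T over Control for Post T, or 1.53 on the log2 scale (SE 0.24, interval 1.07 to 1.99), and 382 genes (2.03%) had a larger one. Without Post T ovary 4 the log2 fold change after washout was 1.29. The log2 change in Post T minus that in On T was -0.26 (SE 0.33). The lowest On T ovary had 2.12 times the Kit level of the highest ovary of its controls, and the lowest Post T ovary 1.81 times.

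Separation of this kind was not rare. Over all genes tested, 7.22% had every On T library above every Control for On T library, and 9.62% had every Post T library above every Control for Post T library. Both held for 404 genes (2.15%), Kitl and Kit among them. At an adjusted p below 0.05 in edgeR's quasi-likelihood test, 9.27% of genes were called in On T against its controls, 4.24% higher and 5.03% lower. Their number was 1746, and it was 1094 without control library 2 and 1081 without control library 4. In Post T against its controls 12.3% were called, 7.49% higher and 4.81% lower, and 332 genes (1.76%) were called higher in both comparisons.

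**Figure D1:**
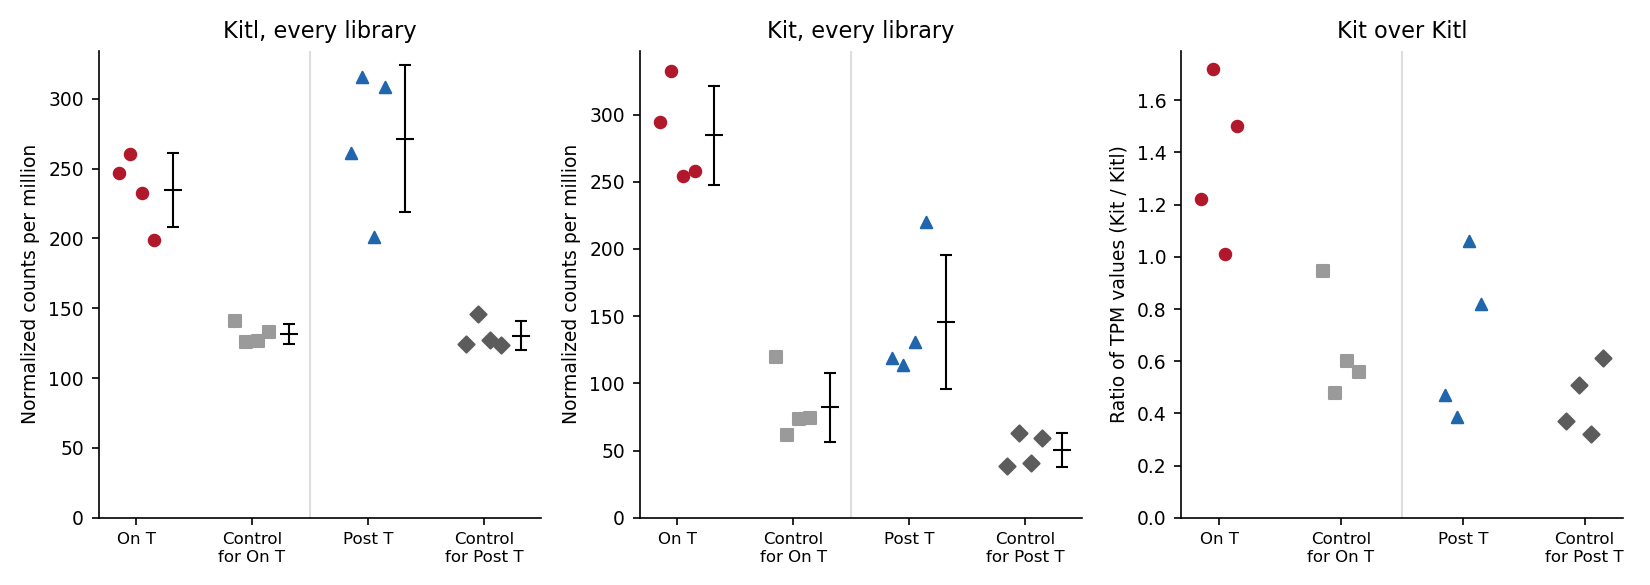
Left and middle, normalised CPM of Kitl and of Kit in each of the 16 libraries, with the group mean and SD beside the points (n = 4). Right, the ratio of the TPM values of Kit and Kitl in each library. Kitl lay between 199 and 316 CPM in the testosterone ovaries and between 124 and 146 CPM in the control ovaries, and Kit was highest in the On T ovaries.

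Ordered by mean level, Kitl stood highest in Post T, then On T, Control for On T and Control for Post T. Post T and On T overlapped, and so did both control groups. For Kit the order was On T, Post T, Control for On T and Control for Post T. The On T ovaries (254 to 333 CPM) did not overlap with the Post T ovaries (114 to 220.1 CPM), but Post T overlapped with Control for On T (61.9 to 119.5 CPM) and Control for On T overlapped with Control for Post T (38.6 to 62.9 CPM). These orders cross cohorts that differ in age and in time since treatment, and no test was made between cohorts. Ranked by mean TPM, a level per transcript length, Kit was number 1538 of 29442 genes with a TPM above 0 in On T, against number 5895 of 29437 in Control for On T. Kit was number 2984 of 29436 in Post T, against number 7425 of 29125 in Control for Post T. Kitl was number 2167 in On T against 4114 in Control for On T, and number 1844 in Post T against 4127 in Control for Post T.

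The ratio of Kit to Kitl by TPM was higher in On T than in its controls, which was not tested. On T ovaries 1 to 4 had 1.22, 1.72, 1.01 and 1.5 times as much Kit as Kitl by TPM, against 0.946, 0.478, 0.602 and 0.557 times in Control for On T ovaries. Every On T ovary thus had a higher TPM of Kit than of Kitl, and every control ovary a lower one. Post T ovaries had ratios of 0.472, 0.387, 1.06 and 0.819, against 0.372, 0.508, 0.321 and 0.611 in Control for Post T ovaries. These groups overlapped, with means of 0.684 in Post T and 0.453 in Control for Post T. Post T ovary 3, which had the lowest Kitl of its group, had the highest ratio by TPM. By CPM Post T ovary 4 stood higher, with 220.1 CPM of Kit and 308 of Kitl, against 130.5 and 201 CPM in Post T ovary 3.

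Whether Kitl and Kit moved together from ovary to ovary was asked of the deviations from the group means, which the choice of the pair did not use. Over 16 ovaries Pearson's r was 0.43 (exact permutation within groups, 2-sided, p = 0.184, adjusted p = 0.507 over 11 relations) and Spearman's rho was 0.38 (exact permutation p = 0.197, adjusted p = 0.542). Without the 2 ovaries farthest from the median in Kit, Post T ovary 4 and Control for On T ovary 1, Pearson's r was 0.20 (exact permutation p = 0.424). Post T ovary 3, the farthest in Kitl (-0.41), stayed in that set. In the 8 testosterone ovaries alone r was 0.38 (exact permutation p = 0.526), and in the 8 control ovaries alone it was 0.71 (exact permutation p = 0.0573). Post T ovary 4 stood high in both genes (Kitl 0.21 and Kit 0.65 above its group mean in log2 CPM), whereas Post T ovary 2 stood high in Kitl (0.24) and low in Kit (-0.31).

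**Figure D2:**
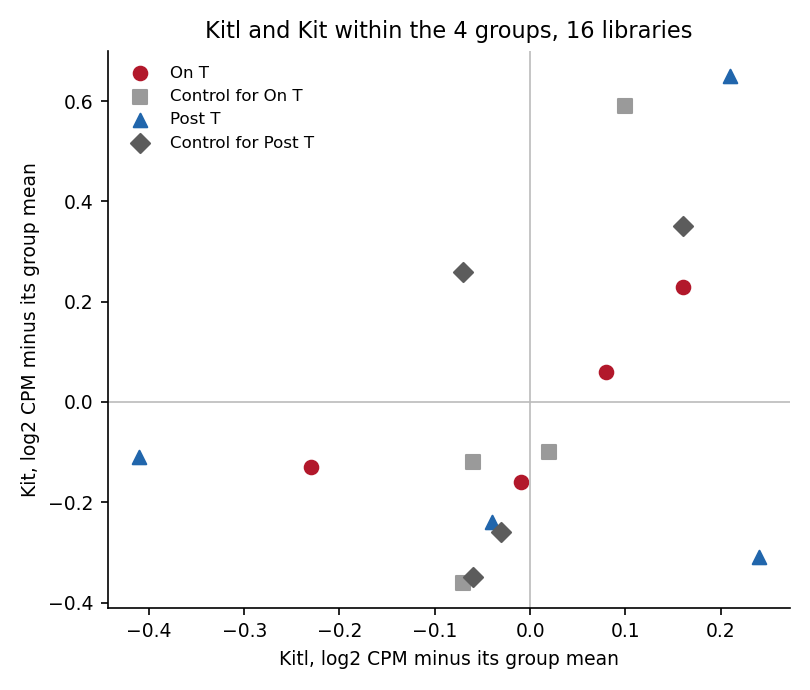
Deviation of Kitl (horizontal) and of Kit (vertical) from the mean of its own group, in log2 CPM, for the 16 libraries, with symbols for the 4 groups. The points rise together only loosely, with r of 0.43, and Post T ovary 3 is the point far to the left at -0.41.

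The marker genes of the cells that carry the ligand or the receptor give the setting. Counts of called genes in each list below are to be read beside the shares over all genes. These were 4.24% higher and 5.03% lower in On T, and 7.49% higher and 4.81% lower in Post T. Of 20 oocyte markers, 1 rose and 0 fell in On T against its controls, where 4.24% and 5.03% of all genes did, and 0 were called in Post T by edgeR, DESeq2 or limma, with 1 at an unadjusted p below 0.05 in edgeR. The median log2 fold change of the list was -0.10 in On T and 0.23 in Post T, against -0.01 for all genes in each. Gdf9, a growth factor secreted by the oocyte, averaged 49.8 ± 7.98 CPM in On T against 62.5 ± 18.3 in Control for On T, and 47.1 ± 5.89 in Post T against 44.4 ± 6.20 in Control for Post T (n = 4, edgeR adjusted p = 0.301 and 0.851). Zp3, of the egg coat, had log2 fold changes of -0.10 and 0.39, and Ddx4, a helicase of germ cells, 0.28 and 0.09 (edgeR adjusted p from 0.251 to 0.853). The marker that rose was Sohlh1, a transcription factor of early oocytes, with 3.00 ± 0.628 CPM in On T against 1.61 ± 0.296 in Control for On T (log2 0.89, SE 0.22, edgeR adjusted p = 0.0174). That call was lost without On T library 2 or without control library 2 or 4 (adjusted p from 0.054 to 0.065).

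None of the 16 granulosa markers passed the test in either comparison, with a median log2 fold change of 0.18 in On T and 0.12 in Post T. DESeq2 and limma called 0 as well, and at an unadjusted p below 0.05 edgeR picked 2 in On T and 0 in Post T. The summed TPM of the list ran widely in On T, from 3256 to 10046, against 5112 to 7632 in Control for On T. On T ovary 2 was lowest of its group in every listed marker but Nr0b1. Its Inha was 1161 CPM, against 3179, 4271 and 3553 CPM in On T ovaries 1, 3 and 4. Kitl, which granulosa cells are known to make, had log2 fold changes of 0.83 and 1.06 in the same comparisons. Amh, the anti-Müllerian hormone of growing follicles, averaged 371 ± 115 CPM in On T against 269 ± 76.3 in Control for On T (n = 4, edgeR adjusted p = 0.217). Without On T library 2 the fit called 2 granulosa markers in On T, Amh among them (log2 0.65, adjusted p = 0.0362). Amh averaged 206 ± 27.6 CPM in Post T against 222 ± 24.3 in Control for Post T (n = 4, edgeR adjusted p = 0.845). Foxl2, a transcription factor of granulosa cells, had log2 fold changes of 0.29 and 0.07, and Fshr, the receptor of follicle-stimulating hormone, -0.22 and 0.03 (edgeR adjusted p from 0.369 to 0.970).

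Theca markers were divided. In On T 2 of 16 rose and 2 fell, and in Post T 3 rose and 1 fell, with a median log2 fold change of 0.21 and 0.11. The 4 calls in On T became 7 without On T library 3, and the 4 in Post T became 2 without Post T library 1 or control library 1. Tcf21, a transcription factor of stromal and theca precursors, averaged 88.1 ± 15.3 CPM in On T against 55.0 ± 5.28 in Control for On T (log2 0.68, SE 0.12, edgeR adjusted p = 0.00141), and 72.7 ± 9.78 in Post T against 55.0 ± 2.81 in Control for Post T (log2 0.40, SE 0.12, edgeR adjusted p = 0.0335). The call in Post T was lost in 5 of 8 fits that each left out 1 library, namely Post T 1 or 3 or control 1, 2 or 4 (adjusted p up to 0.122). Gli1, which hedgehog signals switch on in theca cells, rose in On T (log2 0.68, SE 0.19, edgeR adjusted p = 0.035), a call lost without On T library 2 (log2 0.37, adjusted p = 0.0745) or without any of the 4 control libraries (adjusted p from 0.0612 to 0.0973).

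The steroid-making genes of theca cells went other ways. Star, which carries cholesterol into mitochondria, fell to 55.2 ± 46.9 CPM in On T against 460 ± 137 in Control for On T (log2 -3.06, SE 0.56, edgeR adjusted p = 0.00229), and Cyp11a1, the side-chain cleavage enzyme, fell as well (log2 -2.09, SE 0.34, edgeR adjusted p = 0.000864). Both are also made by luteal cells. In Post T, Star was lower (log2 -2.01, SE 0.54, edgeR adjusted p = 0.0204). That call was lost without Post T library 1, 2 or 3 or control library 1 (log2 from -2.01 to -1.2, adjusted p from 0.0528 to 0.112). Insl3, an insulin-like hormone of theca cells, rose in Post T, with 16.0, 13.2, 12.2 and 45.3 CPM in Post T ovaries 1 to 4 against 3.04, 8.03, 7.97 and 4.33 CPM in Control for Post T ovaries (log2 1.89, SE 0.45, edgeR adjusted p = 0.00866). Aldh1a1, a retinaldehyde dehydrogenase, rose in Post T (log2 1.12, SE 0.20, edgeR adjusted p = 0.000856) and had a log2 fold change of -0.01 in On T (adjusted p = 0.981). Cyp17a1, the androgen-forming enzyme, varied widely, with 122, 88.1, 1096 and 47.6 CPM in On T ovaries against 510, 128, 487 and 368 CPM in Control for On T ovaries (edgeR adjusted p = 0.952). For Lhcgr, the receptor of luteinising hormone, log2 fold changes were -1.46 in On T and -0.02 in Post T (edgeR adjusted p = 0.0858 and 0.990). Left without On T library 3, the fit called Lhcgr lower in On T (log2 -1.94, adjusted p = 0.0296).

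Most mast cell markers were scarce, while a few that other cells also make were not. Of 16 markers 8 had enough counts to be tested, and 1 of these rose in each comparison. Fcer1a and Ms4a2, subunits of the mast cell IgE receptor, did not exceed 0.273 and 0.102 CPM in any library, where 3 counts correspond to 0.057 to 0.113 CPM. Cpa3, a protease of mast cell granules, had 0.171, 0.852, 0.0578 and 0.144 CPM in On T ovaries against 0.13, 0.373, 0.383 and 0.263 CPM in Control for On T ovaries. It averaged 0.176 ± 0.122 CPM in Post T against 0.394 ± 0.185 CPM in Control for Post T. Cma1, mast cell chymase, averaged 0.614 ± 0.859 CPM in On T against 0.423 ± 0.132 in Control for On T, and 0.442 ± 0.424 in Post T against 1.3 ± 0.443 in Control for Post T. Neither protease passed the test (n = 4, edgeR adjusted p from 0.196 to 0.975). The marker that rose was Hpgds, a prostaglandin D synthase also known from macrophages, with log2 fold changes of 0.85 (SE 0.19, edgeR adjusted p = 0.009) in On T and 2.01 (SE 0.19, edgeR adjusted p = 1.52e-06) in Post T. Its call in On T was lost in limma on log2(TPM + 1) and log2(TPM + 0.1) and in the 8 libraries compared alone (adjusted p = 0.0974, 0.0754 and 0.0635), which left 0 mast cell markers called in On T. The most abundant of the list was Slc18a2, a vesicular monoamine transporter, with 46.9 TPM on average in On T against 45.0 in Control for On T, and 39.3 in Post T against 41.9 in Control for Post T (edgeR adjusted p = 0.902 and 0.961). Kit averaged 94.3 TPM in On T against 24.8 in Control for On T, and 50.0 in Post T against 17.2 in Control for Post T. Slc18a2 thus lay above Kit in both control groups and below it in both testosterone groups. Hdc, which makes histamine, had log2 fold changes of -0.05 and -0.46 (edgeR adjusted p = 0.944 and 0.397). The summed TPM of the 16 markers was 62.2 to 71.7 in On T against 42.4 to 81.5 in Control for On T, and 58.7 to 75.5 in Post T against 50.0 to 81.2 in Control for Post T. Of the 16 markers, 10 averaged under 0.5 TPM in each group.

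Of the 8 melanocyte markers, 3 were tested and 1 rose in each comparison. Tyrp1, a pigment enzyme, had 0 counts in all 16 libraries, and Dct, Tyr and Mlana did not exceed 0.178 CPM. Oca2, a transporter of melanosomes, rose (log2 0.87, SE 0.26, edgeR adjusted p = 0.0429 in On T, and 2.00, SE 0.27, adjusted p = 5.37e-05 in Post T). The call in On T held only in the fit without control library 1 among the 8 that left out 1 library (adjusted p from 0.0558 to 0.114 in the other 7). Of 10 endothelial markers 1 rose in each comparison, Vwf, the clotting factor carrier (log2 1.25, SE 0.25 in both, edgeR adjusted p = 0.00383 in On T and 0.0023 in Post T). Kdr, the receptor kinase gene next to Kit and a vascular marker, had log2 fold changes of 0.13 and -0.21 (edgeR adjusted p = 0.617 and 0.406). None of 10 surface epithelium markers passed in edgeR, DESeq2 or limma, and 0 had an unadjusted p below 0.05 in edgeR in either comparison. Their summed TPM ran widely in On T, from 83.7 to 301, against 181 to 259 in Control for On T. Upk3b had 48.8, 4.49, 44.0 and 11.6 CPM in On T ovaries 1 to 4, against 28.4 to 55.1 CPM in Control for On T. Wt1, also of this list, did not split in this way (71.7 to 81.2 CPM in On T).

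Luteal and macrophage markers moved in the same ovaries in which Kitl and Kit were high. Of 11 luteal markers tested, 7 fell and 1 rose in On T, and 8 fell and 1 rose in Post T, with a median log2 fold change of -2.25 and -2.62. Their summed TPM was 289 to 580 in On T against 1527 to 2884 in Control for On T, and 319 to 700 in Post T against 1930 to 3163 in Control for Post T. The marker that rose in both was Lcn2, a lipocalin, named here after its values were seen. Of 10 macrophage markers 4 rose and 0 fell in On T, and 7 rose and 0 fell in Post T, with a median log2 fold change of 0.15 and 1.29. The summed TPM of these 10 was 702 to 1322 in On T against 406 to 579 in Control for On T. It was 4671 to 6479 in Post T against 627 to 1407 in Control for Post T. Lyz2 alone averaged 639 TPM in On T against 207 in Control for On T. The 4 that rose in On T were Gpnmb, Lyz2, Cd68 and Trem2 (log2 2.68, 1.62, 1.17 and 1.19). Adgre1, Csf1r, C1qa, C1qb, C1qc and Mrc1 were not called there (log2 from -0.25 to 0.16). The part of either shift in the levels of Kitl and Kit was not tested.

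**Figure D3:**
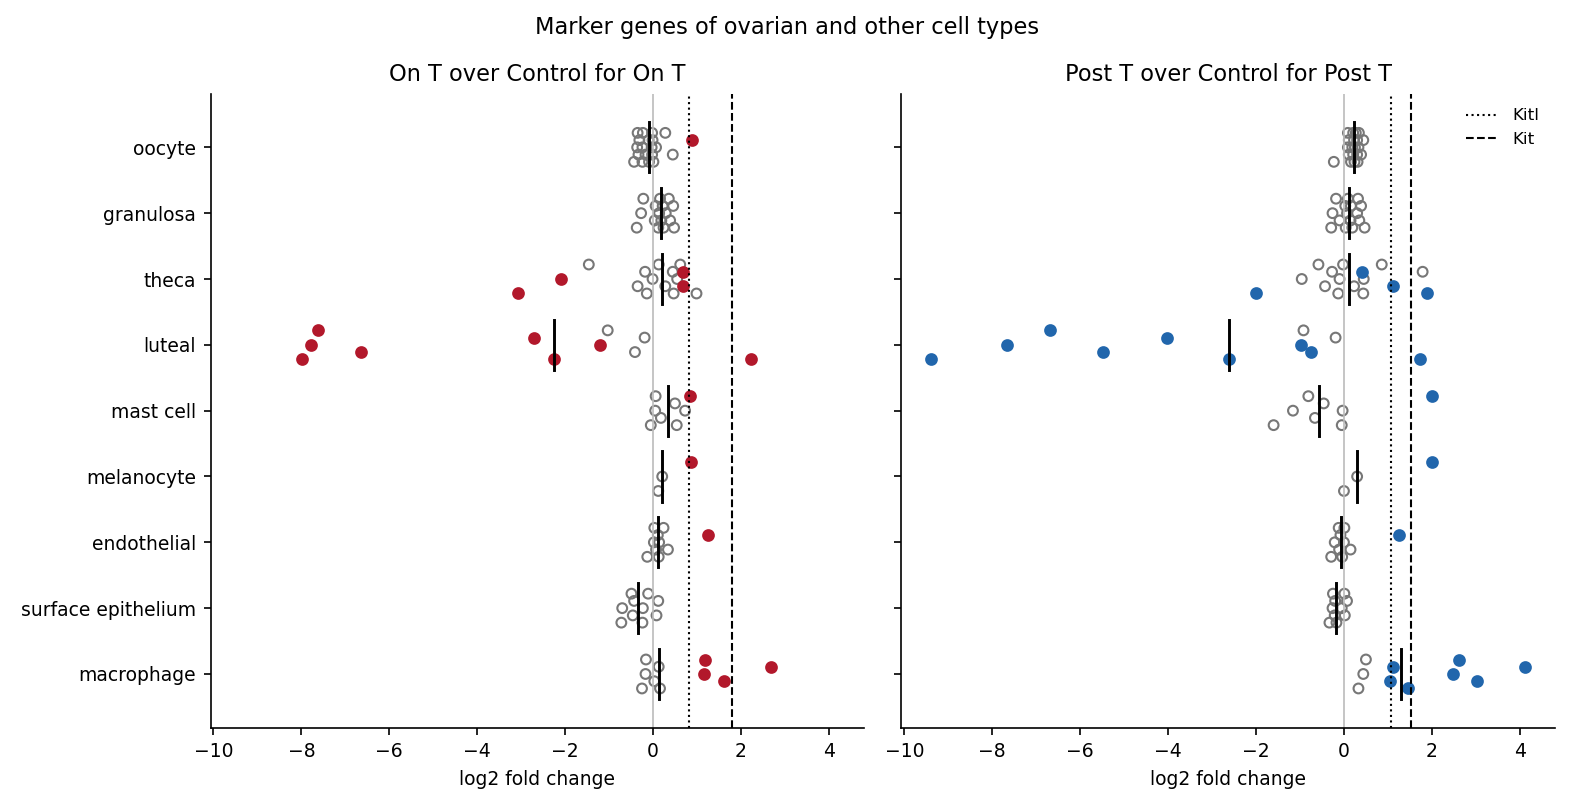
Log2 fold change of each tested marker gene, by cell type, in On T over Control for On T (left) and Post T over Control for Post T (right). Filled points passed edgeR's test at an adjusted p of 0.05, open points did not, black bars are list medians, and the dotted and dashed lines are Kitl and Kit. Most oocyte and granulosa markers lie near 0, with the called oocyte marker Sohlh1 in On T at 0.89, luteal markers reach far below 0, and macrophage markers lie above 0 in Post T.

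Across the 16 ovaries the deviations of Kitl and Kit were set against the mean log2 CPM of the oocyte, theca, mast cell, granulosa and luteal markers, which with the relation of the pair itself made 11 relations. None passed after adjustment. The closest was Kitl with theca markers (r = 0.67, exact permutation p = 0.0427, adjusted p = 0.47, and rho = 0.54, exact permutation p = 0.0556, adjusted p = 0.418), and without the 2 ovaries farthest in the theca level r was 0.04, so the relation rests on those ovaries. Kit with theca markers had r = 0.44 (exact permutation p = 0.0922, adjusted p = 0.507) and rho = 0.41 (exact permutation p = 0.11, adjusted p = 0.418). Kit had r of -0.03 with oocyte markers and -0.11 with mast cell markers (exact permutation, adjusted p = 0.999 for each). The mast cell level was the mean of the 8 markers with enough counts to be tested. These include Hpgds, Slc18a2 and Hdc but not Fcer1a and Ms4a2, so this r does not speak of mast cells alone. Luteal markers had r of -0.01 with Kitl and -0.33 with Kit (exact permutation, adjusted p = 0.999 and 0.555). In the 8 control ovaries alone they had r = -0.66 and rho = -0.81 with Kitl (exact permutation p = 0.0833 and 0.0295, adjusted p = 0.306 and 0.248). With Kit they had r = -0.62 and rho = -0.79 there (exact permutation p = 0.134 and 0.0451, adjusted p = 0.368 and 0.248). In the 8 testosterone ovaries alone r was 0.29 with Kitl and 0.05 with Kit (exact permutation, adjusted p = 0.964 and 0.995).

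Another list held the other class III receptors, which are closest to Kit by structure, and the ligands of these receptors. Of its 11 genes 1 rose and 3 fell in On T, where 4.24% and 5.03% of all genes did. In Post T 2 rose and 1 fell, where 7.49% and 4.81% of all genes did. The 4 calls in On T became 2 in limma and in the 8 libraries compared alone. Pdgfra, a platelet-derived growth factor receptor and the neighbour of Kit on chromosome 5, had 199, 286, 155 and 224 CPM in On T ovaries against 154, 149, 124 and 129 CPM in Control for On T ovaries (log2 0.63, SE 0.16, edgeR adjusted p = 0.0171). This call was lost without On T library 2 or control library 3 or 4 (adjusted p from 0.0513 to 0.0568) and in limma on log2(TPM + 1) (adjusted p = 0.0745). In Post T Pdgfra averaged 150 ± 8.47 CPM against 163 ± 29.5 in Control for Post T (log2 -0.12, SE 0.16, edgeR adjusted p = 0.731). Pdgfrb, the related receptor, had log2 fold changes of -0.26 and -0.29 (edgeR adjusted p = 0.381 and 0.313).

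Il34, a ligand of the Csf1 receptor, fell in both comparisons. It had 4.38, 5.24, 3.44 and 4.39 CPM in On T ovaries against 9.83, 8.28, 11.4 and 7.93 CPM in Control for On T ovaries (log2 -1.10, SE 0.20, edgeR adjusted p = 0.00219), and in Post T its log2 fold change was -1.15 (SE 0.20, edgeR adjusted p = 0.000804). Pdgfa, a ligand of Pdgfra, fell in On T (log2 -0.87, SE 0.15, edgeR adjusted p = 0.00121). Pdgfd, another ligand of the family, fell less (log2 -0.38, SE 0.11, edgeR adjusted p = 0.0427), a call that held in only 1 of the 8 fits that left out 1 library, the one without control library 2. Csf1r, which macrophages carry, and its ligand Csf1 rose in Post T (log2 1.04, SE 0.16, and 0.85, SE 0.19, edgeR adjusted p = 0.000253 and 0.00678).

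The adaptors and kinases that carry the Kit signal were mostly not called. Of 34 tested, 1 rose and 1 fell in On T, and 7 rose and 2 fell in Post T, with medians of -0.02 and 0.00 on the log2 scale. Of all genes, 9.27% were called in On T and 12.3% in Post T. The 2 calls in On T became 5 without control library 1, and 1 without control library 2 or 4 or any On T library. DESeq2 called 4 of them in On T and limma 0. Gab2, a scaffold that gathers PI3 kinase under Kit, rose in both. It had 311, 293, 266 and 343 CPM in On T ovaries against 212, 187, 244 and 218 CPM in Control for On T ovaries (log2 0.49, SE 0.13, edgeR adjusted p = 0.0224), and 262, 253, 240 and 280 CPM in Post T ovaries against 128, 185, 210 and 178 CPM in Control for Post T ovaries (log2 0.56, SE 0.13, edgeR adjusted p = 0.00685). No testosterone ovary overlapped with its controls, as was so for 404 genes (2.15%) that lay higher in both cohorts. The Gab2 call in On T was lost without On T library 4 or control library 2 (adjusted p = 0.0643 and 0.0708) and in limma on log2(TPM + 1) (adjusted p = 0.0922). Pik3r1, the regulatory subunit of PI3 kinase, fell in On T (log2 -0.83, SE 0.22, edgeR adjusted p = 0.0282). The Pik3r1 call was lost without On T library 1, 2 or 3 or control library 3 or 4 (log2 from -0.8 to -0.7, adjusted p from 0.0669 to 0.0903). Foxo3, the transcription factor that Kit signalling restrains in oocytes, had log2 fold changes of 0.12 and 0.14 (edgeR adjusted p = 0.541 and 0.469).

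The rises in Post T were led by Vav1, an exchange factor of blood cells. It had 15.5, 18.1, 19.7 and 13.6 CPM in Post T ovaries against 4.91, 5.59, 6.69 and 4.18 CPM in Control for Post T ovaries (log2 1.65, SE 0.18, edgeR adjusted p = 9.11e-06). Btk, a kinase of B and myeloid cells, rose (log2 1.63, SE 0.19, edgeR adjusted p = 1.19e-05), as did Lyn, a Src family kinase (log2 0.72, SE 0.13, adjusted p = 0.000763). Grb2, the adaptor that links receptor kinases to Ras, rose as well (log2 0.45, SE 0.08, edgeR adjusted p = 0.000703). Fes, a kinase of myeloid cells, rose too and Stat5b, a transcription factor of cytokine signalling, fell (log2 0.74, SE 0.16, and -0.51, SE 0.13, edgeR adjusted p = 0.0042 and 0.0121), both named after their values were seen. Vav1, Btk and Lyn are abundant in white blood cells, and the macrophage markers rose in the same ovaries, 7 of 10. The part of that rise in these changes was not tested.

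Genes known as brakes on Kit signalling came next. Of 16 tested, 0 rose and 1 fell in On T, and 4 rose and 1 fell in Post T, with medians of -0.06 and 0.14. Of all genes, 9.27% were called in On T and 12.3% in Post T. Dok1, a docking protein that damps Ras, fell in both comparisons, with 20.5, 17.3, 20.3 and 21.9 CPM in On T ovaries against 33.6, 43.0, 48.0 and 56.4 CPM in Control for On T ovaries (log2 -1.18, SE 0.15, edgeR adjusted p = 8.06e-05). In Post T its log2 fold change was -0.54 (SE 0.15, edgeR adjusted p = 0.0199). Ptpn6, the SHP-1 phosphatase that acts on Kit, had 28.7, 28.7, 33.4 and 22.5 CPM in Post T ovaries against 11.5, 9.18, 11.6 and 8.31 CPM in Control for Post T ovaries (log2 1.48, SE 0.16, edgeR adjusted p = 7.88e-06). Inpp5d, the SHIP-1 lipid phosphatase, Dok2, a relative of Dok1, and Ptprj, a receptor phosphatase, rose in Post T (log2 1.13, 1.12 and 0.63, SE 0.15, 0.18 and 0.14, edgeR adjusted p = 6.39e-05, 0.000294 and 0.00473). In On T these 4 phosphatases and adaptors had log2 fold changes from -0.26 to 0.23 (edgeR adjusted p from 0.349 to 0.716). Ptpn6, Inpp5d and Dok2 are also abundant in white blood cells.

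Genes that ERK signalling switches on were split. Of 11 tested, 1 rose and 1 fell in each comparison, with medians of -0.30 and -0.25. Etv5, a transcription factor induced by ERK, rose in both, with 21.3, 24.2, 16.9 and 21.7 CPM in On T ovaries against 14.5, 16.6, 12.8 and 13.5 CPM in Control for On T ovaries (log2 0.55, SE 0.13, edgeR adjusted p = 0.0106). In Post T its log2 fold change was 0.46 (SE 0.13, edgeR adjusted p = 0.0238), a call lost without Post T library 4 or control library 3 (adjusted p = 0.0706 and 0.0601). Both Etv5 calls were lost in limma on log2(TPM + 1) (adjusted p = 0.0718 and 0.137). Dusp6, a phosphatase that switches ERK off, fell in On T, with 19.7, 23.9, 19.7 and 22.9 CPM in On T ovaries against 27.7, 41.2, 29.4 and 45.1 CPM in Control for On T ovaries (log2 -0.74, SE 0.15, edgeR adjusted p = 0.00398). Etv4, a relative of Etv5, fell in Post T (log2 -1.34, SE 0.25, edgeR adjusted p = 0.00127).

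**Figure D4:**
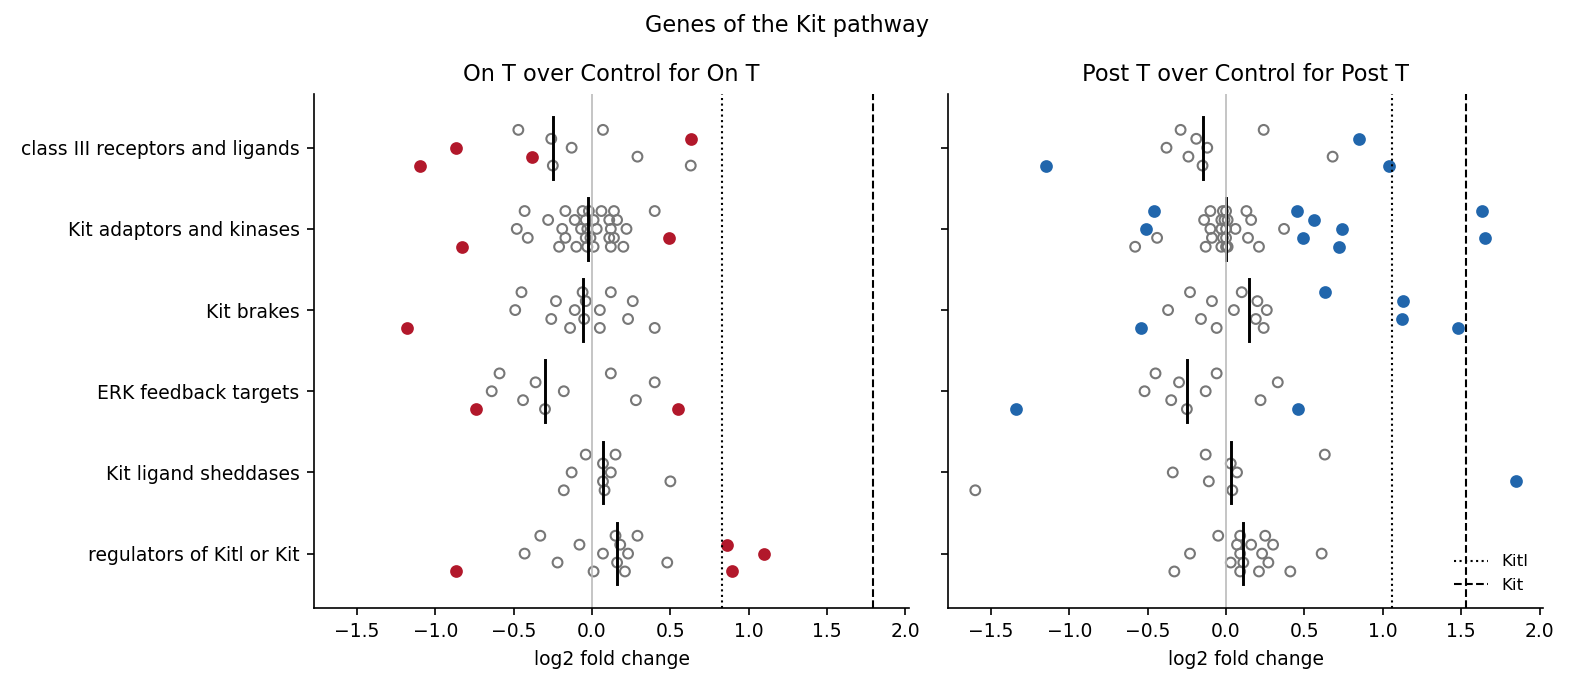
Log2 fold change of each tested gene of 6 lists around Kit, in On T over Control for On T (left) and Post T over Control for Post T (right). Filled points passed edgeR's test at an adjusted p of 0.05, open points did not, black bars are list medians, and the dotted and dashed lines are Kitl and Kit. In On T no adaptor, kinase or brake lies as far right as the Kitl line, and in Post T a few do, led by Vav1, Btk and Ptpn6.

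Proteases that release or regulate the release of membrane-bound ligands gave 1 call in all. In On T 0 of 9 were called by edgeR, DESeq2 or limma, with 0 at an unadjusted p below 0.05 in edgeR. In Post T 1 of 9 rose, Adam8, a protease of myeloid cells, with 35.5, 43.2, 58.4 and 33.4 CPM in Post T ovaries against 8.49, 14.0, 17.0 and 7.84 CPM in Control for Post T ovaries (log2 1.85, SE 0.24, edgeR adjusted p = 4.13e-05). Adam17, the main sheddase of many membrane ligands, averaged 112 ± 17.1 CPM in On T against 106 ± 5.25 in Control for On T, and 107 ± 6.02 in Post T against 102 ± 5.04 in Control for Post T (n = 4, edgeR adjusted p = 0.679 and 0.733).

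Of 17 tested genes known to act on the transcription of Kitl or Kit in some cell type, 3 rose and 1 fell in On T and 0 were called in Post T. Without Control for Post T library 2, or with DESeq2, 1 of them was called in Post T, and without Control for On T library 2 or 4 the 4 calls in On T became 2. At an unadjusted p below 0.05, edgeR picked 2 of them in Post T, where it picked 4306 of all 18833 genes. Sohlh2, the partner of Sohlh1, which together act on Kit in early oocytes, had 0.762, 1.38, 0.925 and 0.895 CPM in On T ovaries against 0.454, 0.441, 0.562 and 0.369 CPM in Control for On T ovaries (log2 1.10, SE 0.25, edgeR adjusted p = 0.0113). Gata1, a blood cell factor that acts on Kit, rose to 11.3 ± 2.13 CPM in On T against 6.20 ± 1.63 in Control for On T (log2 0.86, SE 0.21, edgeR adjusted p = 0.0156), a call lost without control library 2 or 4 (adjusted p = 0.0557 and 0.0593). Sohlh1, given above, was the other that rose. Tgfb1, a transforming growth factor known to lower Kit in blood progenitors, had 49.4, 54.0, 39.2 and 46.8 CPM in On T ovaries against 68.7, 94.4, 87.5 and 94.6 CPM in Control for On T ovaries (log2 -0.87, SE 0.13, edgeR adjusted p = 0.000326). In Post T its log2 fold change was 0.27 (SE 0.13, edgeR adjusted p = 0.203).

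The effects of testosterone in the 2 cohorts were then set against each other for the genes around the pair. Over all genes, 3.25% differed between the cohorts, 2.93% with the higher log2 fold change in Post T and 0.324% with the lower. Of the 190 listed genes tested, 16 had a higher log2 fold change in Post T than in On T and 0 a lower one. They included Vav1 (difference 1.51 on the log2 scale, edgeR adjusted p = 0.0032), Ptpn6 (1.26, adjusted p = 0.00503), Csf1r (1.29, adjusted p = 0.0036) and Tgfb1 (1.14, adjusted p = 0.00153). Over the 190 listed genes together, 16 rose and 16 fell in On T, and 28 rose and 14 fell in Post T.

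The genes most like Kit in their ovary to ovary deviations were sought among 11585 genes with at least 5 CPM on average, as a description. The first 5 were Zfp185, a LIM domain protein (r = 0.909), Fxyd6, a regulator of the sodium pump (0.867), Chdh, choline dehydrogenase (0.864), Ush1g, a scaffold known from hair cells (0.862), and Mme, the membrane protease neprilysin (0.851). Zfp185 also rose with testosterone, by 0.90 in On T (SE 0.16, edgeR adjusted p = 0.00203) and 1.16 in Post T (SE 0.16, adjusted p = 9.45e-05), and Chdh rose by 2.05 (SE 0.27, adjusted p = 0.000137) and 0.89 (SE 0.27, adjusted p = 0.0376). Fxyd6 and Ush1g rose in On T (log2 1.11 and 1.05, edgeR adjusted p = 0.000153 and 0.00571) and had 0.36 and 0.10 in Post T (adjusted p = 0.142 and 0.866). Over the raw levels, which hold the group differences, the r of these 5 with Kit ran from 0.83 to 0.96. At the other end stood Naaa, Cdt1 and Pfkp (r of -0.804, -0.799 and -0.783).

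For Kitl the first 5 were Zscan18, Foxn2, Tmem106b, Serac1 and Zfp790 (r from 0.868 to 0.889). None of these 5 passed the test in either comparison (log2 fold changes from -0.10 to 0.26, edgeR adjusted p from 0.323 to 0.968). Slc35c2, Cfl1 and Tmem51 were lowest (r of -0.874, -0.868 and -0.845). Kit stood at place 1419 in likeness to Kitl, and Kitl at place 694 in likeness to Kit. All of these values rest on the same 16 libraries, which share their depth and their composition.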

How the data were processed

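RNA was measured in 16 whole-ovary libraries, 4 mice per group, 1 ovary each, after poly(A) selection with a strand-keeping kit, per the labels' protocols. Per the submitters' processing notes the tools were STAR 2.7.8a, RSEM 1.3.3, cutadapt 2.3 and FastQC 0.11.8, and the build was GRCm38. Which annotation was counted, and whether by strand, is not given in the sources used here. The deposited expected counts are RSEM estimates per gene that the authors left unnormalised, and every value held was whole. TPM values, deposited beside them, carry the authors' scaling for transcript length and for library size. FPKM values were left aside.

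All 16 libraries entered 1 fit of the expected counts in R 4.3.3 with edgeR 4.0.16 (filterByExpr with a minimum count of 10, TMM, a mean per group, quasi-likelihood F test, Benjamini-Hochberg adjustment over 18833 genes at 0.05). The contrasts were On T minus Control for On T, Post T minus Control for Post T, and the Post T effect minus the On T effect. Each standard error was taken from the log2 fold change and the F statistic of its test, and gives the 95% interval. Levels are TMM-scaled CPM, as mean ± SD of 4 libraries. Relations used log2 CPM (prior count 2) minus the group mean, with an exact permutation test within groups (331776 permutations for 16 libraries) and adjustment over 11 relations.

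Kitl and Kit, the 15 gene lists (206 symbols, some in more than 1 list), the tests and the rule for named genes were chosen with earlier results of these data known. The rule named up to 4 called members per list and comparison by smallest p, 18 defining genes whatever their values, and the 5 genes most like and 3 least like each member. Totals of 26598055 to 52659637 counts put 3 counts, taken as the floor, at 0.057 to 0.113 CPM, which covers counting error only. The labels name biological replicates, 1 mouse each. No pair of libraries of the same group agreed within sampling noise. The alternatives tried were DESeq2 1.42.0, size factors by median of ratios, filters of none and of 1 CPM in at least 4 libraries, limma 3.58.1 on log2(TPM + 1) and log2(TPM + 0.1), the 8 libraries compared alone, a block for the replicate number, and leaving out each library. The main edgeR fit was also tested on simulated counts with known changes in On T, and the other fits were not. Promoter stretches came from RefSeq and gene positions from GENCODE M21, which held 99.51% of the identifiers. Some genes of the lists enter the counts and are not reported here singly.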

Additional observations from a re-analysis of the deposited data

Results flagged for a closer look

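With 4 libraries per group, a library was looked for that stood far from the other 3, in 100 groups of values (Kitl, Kit, 18 defining genes and 5 marker list levels in 4 groups), of which chance picks about 1 in 20. Kit was one of the genes so found, with 220 CPM in Post T library 4, against 114 to 130.5 CPM in the other Post T libraries. Insl3 stood high in the same library (45.3 CPM). Foxl2 stood high in Post T library 1 (308 CPM), and Kdr stood low in Post T library 3 (69.5 CPM). Cyp17a1 had 1096 CPM in On T library 3. The mast cell proteases Cpa3 and Cma1 had their high values, 0.852 and 1.90 CPM, both in On T library 2. Foxo3 stood low in Control for Post T library 1 (89.5 CPM).

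For 14 named genes the effect of testosterone differed between the cohorts in edgeR's test of the difference itself, each with the higher log2 fold change in Post T. The macrophage markers Cd68 and Csf1r differed by 1.44 (edgeR adjusted p = 0.0149) and 1.29 (0.0036). The signalling genes Vav1, Btk, Lyn and Grb2 differed by 1.51 (0.0032), 1.22 (0.015), 0.83 (0.0145) and 0.55 (0.00957). The brakes Dok2, Ptpn6, Inpp5d and Ptprj differed by 1.38 (0.00441), 1.26 (0.00503), 1.25 (0.0033) and 0.86 (0.0196). Adam8 differed by 1.69 (0.00831), Hpgds by 1.16 (0.0206), Tgfb1 by 1.14 (0.00153) and Aldh1a1 by 1.13 (0.0332).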

How the results depend on the processing

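Kitl and Kit kept their direction, and moved by less than the spread between replicates, under all 16 settings tried for each comparison. The log2 fold change of Kitl ran from 0.78 to 0.92 in On T and from 1.00 to 1.18 in Post T when 1 library was left out, and that of Kit from 1.69 to 2.03 and from 1.29 to 1.67. With a block for the replicate number the 4 values were 0.83, 1.05, 1.80 and 1.52. The deviations of same-numbered libraries had correlations from -0.019 to 0.233, over 0.1 in 3 of 8 pairs, and 5 of 16 libraries correlated best with their own number. No label says that a number marks a shared origin, so the numbers were not taken to pair the samples. The block gave 1676, 2274 and 567 calls in On T, in Post T and for the difference, against 1746, 2315 and 612 without it, and it took Cma1 in Post T past the threshold (log2 -1.90, adjusted p = 0.0207) and Star and Tcf21 in Post T below it (adjusted p = 0.0544 and 0.0616).

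Counts of called genes in On T fell to 1130 in limma on log2(TPM + 1) and ran from 1081 to 1764 when 1 library was left out, lowest without control library 4 or 2. In Post T they ran from 1753 to 2294 and for the difference from 453 to 735, which DESeq2 put at 982. Calls among the listed genes stayed within 1.5 times of 32, 42 and 16 in every refit run. In limma on log2(TPM + 1) the On T calls of Gli1, Pdgfd and Pik3r1 and the Post T calls of Star and Tcf21 were also lost (adjusted p from 0.0598 to 0.169). In the 8 libraries compared alone those of Pdgfra, Gli1, Oca2 and Pdgfd in On T were lost (adjusted p from 0.0557 to 0.121) and Lhcgr was called (0.0339).

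Direction reversed only in values that did not pass the test. In On T, leaving out 1 library gave ranges of -0.27 to 0.13 for Zp3, -2.11 to 0.23 for Cyp17a1, -1.11 to 0.41 for Cpa3, -1.10 to 0.85 for Cma1, -0.48 to 0.04 for Fshr and -0.02 to 0.24 for Kdr. Cpa3 was -0.17 and Cma1 -0.20 in limma on log2(TPM + 0.1), and Cpa3 was -0.18 under the block. In Post T, Lhcgr was 0.05 under the block, Fshr -0.05 in limma on both TPM scales, and leaving out 1 library gave ranges of -0.0036 to 0.17 for Gdf9, -0.30 to 0.35 for Lhcgr, -0.15 to 0.00011 for Amh, -0.12 to 0.21 for Fshr and -0.06 to 0.22 for Foxl2. None of the relations that changed sign passed after adjustment under any setting. On log2(TPM + 1), r was 0.01 for Kit with oocyte, 0.08 for Kit with mast cell, 0.19 for Kitl with granulosa and 0.37 for Kitl with luteal markers. Without the 2 farthest libraries, r was -0.04 for Kitl with mast cell, 0.30 for Kitl with granulosa, 0.07 for Kit with granulosa and 0.09 for Kitl with luteal markers. It was 0.23 for Kitl with luteal markers as summed TPM, 0.29 and 0.05 for Kitl and Kit with luteal markers in the 8 testosterone libraries, and 0.03 for Kit with oocyte markers in the 8 control libraries. The cause of these changes was not tested.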
